A study of Mus musculus with 16 samples.

Results

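The livers of 1-month-old mice on day 6 after a single dose of diethylnitrosamine (DEN) were compared with those on day 2, using 6 of the 16 RNA sequencing libraries of the series, 3 for each day. The mice were wild type C57BL/6 males with a labelled age of 3 to 4 weeks, called 1 month in the study, and each was injected intraperitoneally with 25 mg DEN per kg body weight, the dose in the sample labels (the published methods print it per g). Each library holds equal amounts of total RNA from the whole livers of 3 mice, so n counts pools and an SD is a spread between pools. The other groups used for reference are untreated 1-month livers (2 libraries), untreated 6-month livers (2 libraries), and 6-month livers on days 2 and 6 after the same injection (3 libraries each). The untreated mice have no day of their own, so 4 days of growth at this age and 4 more days after DEN cannot be told apart in the comparison.

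DEN is activated in hepatocytes by cytochrome P450 enzymes to an alkylating agent, and the DNA lesions that follow switch on p53, the transcription factor that halts the cell cycle and can start cell death. At weaning age the mouse liver is still changing its own program. Fetal genes are being shut off, and with puberty the pulsed secretion of growth hormone in males raises a set of male-biased genes, such as the major urinary proteins (Mup) and several P450 enzymes, while female-biased genes are lost. Many hepatic genes also follow the circadian clock, in which Dbp, Per and Nr1d genes peak at the opposite time of day from Arntl and Npas2.

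Very few genes passed a test of day 6 against day 2 after adjustment. Of 15684 genes tested, 1 was called higher on day 6 and 0 were called lower at an adjusted p under 0.1 by edgeR's quasi-likelihood test after adjustment by Benjamini and Hochberg, a background of 0.00638% called. The gene was Nnmt, which encodes nicotinamide N-methyltransferase. DESeq2, the tool used in the study, called 21 genes higher (0.14%) and 10 lower (0.0665%) on the same counts, together 0.206% of the genes it gave an adjusted p. Before adjustment, edgeR gave 458 higher genes (2.92%) and 335 lower genes (2.14%) a p under 0.05, 793 in all or 5.06%. That share is close to the 0.05 that the threshold alone would pass with no difference between the days. All 3 day 6 libraries lay above all 3 day 2 libraries for 558 genes (3.56%) and below them for 515 genes (3.28%), which are the backgrounds for the counts of non-overlapping genes given below. The median log2 fold change over all genes was -0.00.

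The 6 libraries held 21.5 to 28.8 M counts (M, 1000000). Levels are given in CPM (counts per 1000000, after TMM scaling). The libraries were not uniform within a day. The clock score, the mean log2 CPM of 9 Dbp-phase genes minus that of 5 Arntl-phase genes, was 4.93, 4.07 and -1.72 in day 2 replicates 1 to 3 and 2.94, -2.19 and 1.97 in those of day 6, where 0 has no meaning of its own. Day 2 replicate 3 and day 6 replicate 2 were thus in the opposite phase from the other 4, as was 1 of the 2 untreated 1-month libraries at -0.77. Dbp was at 128, 89.9 and 0.871 CPM on day 2 and at 28.1, 0.376 and 58.5 CPM on day 6, while Arntl was at 1.15, 0.839 and 35.2 CPM and then at 4.61, 37.8 and 10.7 CPM. Neither day holds 1 phase, so values are also given without the low-score libraries (2 against 2, the untreated one left out too). Others are given between the low-score libraries alone (1 against 1). The 2 against 2 libraries were not matched for the clock, with scores of 4.93 and 4.07 on day 2 and 2.94 and 1.97 on day 6. Among them the median log2 fold change of the Arntl-phase genes was 1.53, against 0.52 with all 6 libraries. Day 2 replicate 2 stood apart in another way, being the lowest of the 6 libraries for 23 of 30 male-biased genes and the highest for 21 of 32 female-biased genes, against 22.7% and 23% of all genes. It was also the highest for 18 of 43 p53 target genes and 21 of 32 genes of NRF2 and oxidant defence.

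Nnmt transfers a methyl group from S-adenosylmethionine to nicotinamide, the vitamin from which NAD is rebuilt. It lies on the minus strand of chromosome 9 from 48591877 to 48605153 (ENSMUSG00000032271, GRCm38). It was measured at 33.2, 35.7 and 32.2 CPM on day 2 and at 116, 62.0 and 74.8 CPM on day 6. The day 2 libraries were close together and all below the day 6 libraries, which spread more widely. On the log2 scale day 6 exceeded day 2 by 1.32 ± 0.19 (SE; adjusted p = 0.0857 from edgeR), that is 2.5-fold, and DESeq2 gave an adjusted p of 1.25e-06. Untreated 1-month livers held 39.9 and 37.9 CPM, next to the day 2 values, and all 8 libraries of 6-month livers lay between 72.9 and 103 CPM, within the range of the day 6 values. In 6-month livers day 6 minus day 2 was 0.04 on the log2 scale, and the difference between the ages had an unadjusted p of 0.00023 and passed with DESeq2 (adjusted p = 0.0688) but not with edgeR (adjusted p = 1.00). The log2 fold change was 1.46 without the low-score libraries and 0.94 between the low-score libraries. The call was close to its threshold, since edgeR gave an adjusted p of 0.627 when fitted to the 6 libraries alone, and leaving out any day 2 library or day 6 replicate 1 ended it.

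**Figure D1:**
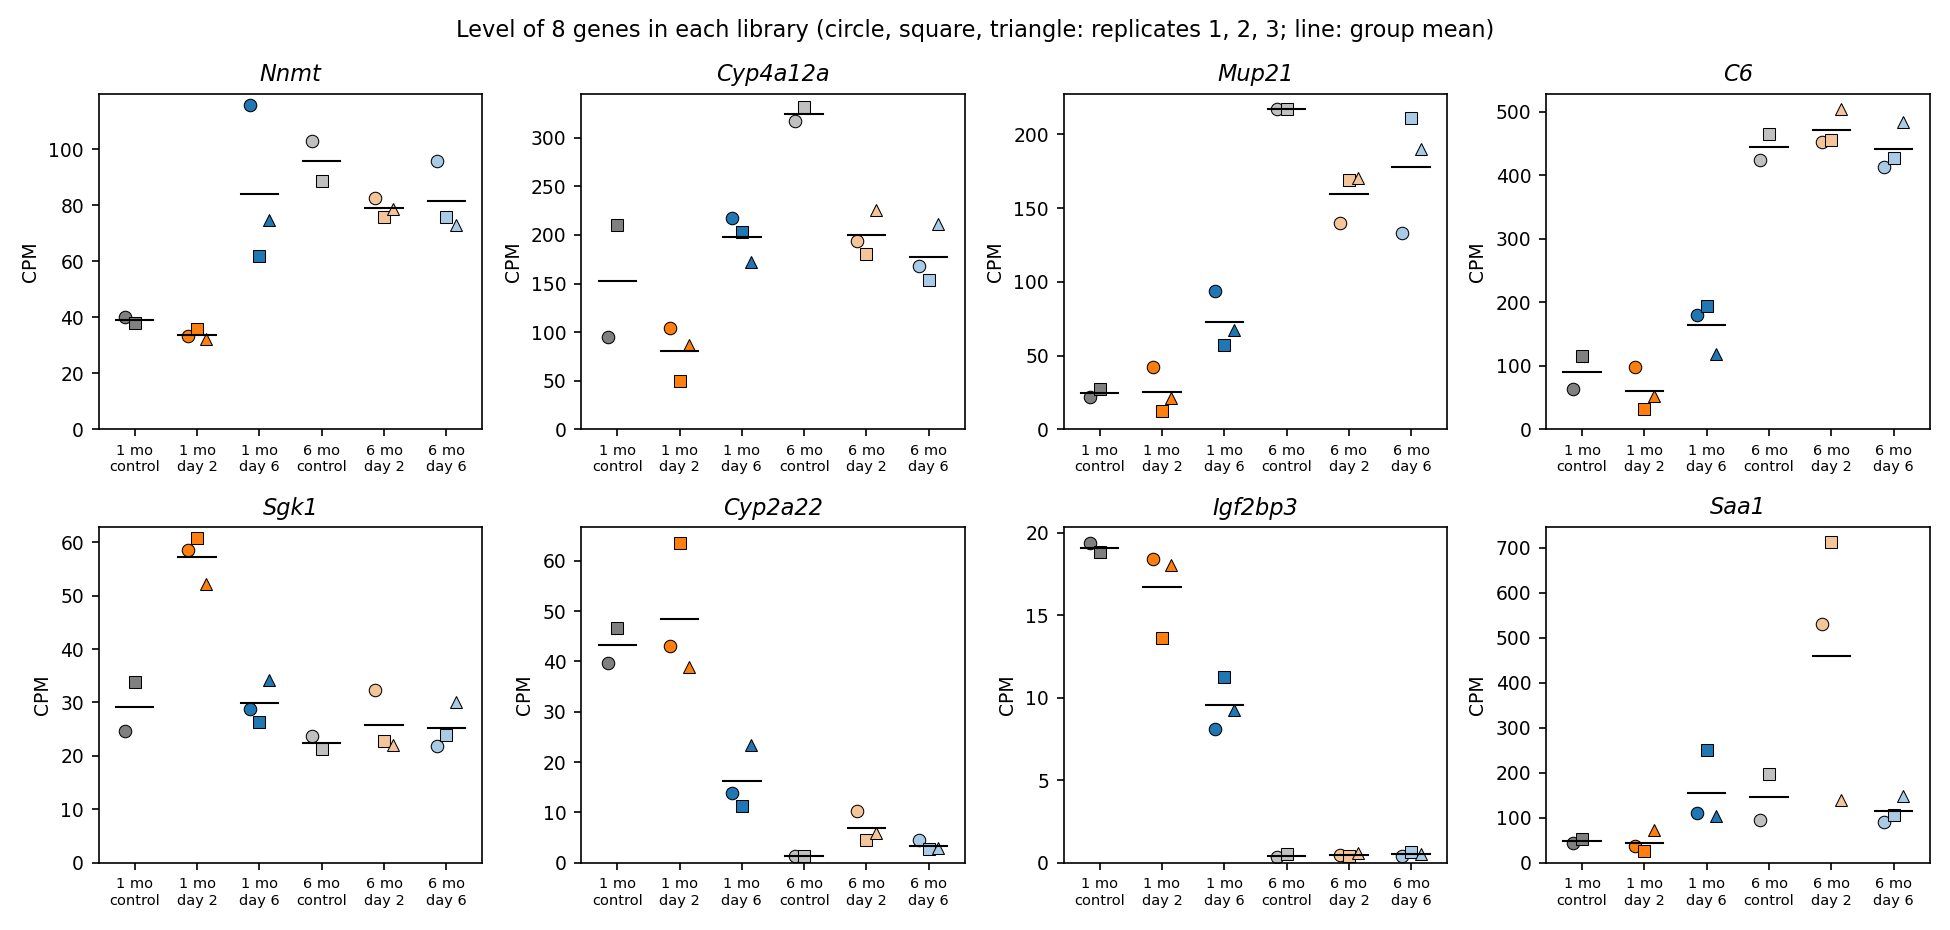
Levels of 8 genes (CPM, linear axes from 0) in each of the 16 libraries by age and day, with circles, squares and triangles for replicates 1, 2 and 3 and a line at the group mean. Nnmt, Cyp4a12a, Mup21 and C6 lay higher in every 1-month library of day 6 than of day 2, Sgk1, Cyp2a22 and Igf2bp3 lay lower, and Saa1 ran in opposite directions at the 2 ages.

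The other genes of nicotinamide, NAD and methyl-group metabolism had no common direction. Of 43 on the list 42 were tested, with 21 fold changes above 0 and a median of -0.00, and 1 was higher without overlap (Nnmt) and 1 lower. The lower one was Nadk2, the mitochondrial NAD kinase, at 253, 250.0 and 245 CPM on day 2 and at 221, 210.1 and 218 CPM on day 6 (log2 fold change -0.20, adjusted p = 0.951 from edgeR). Acmsd, which diverts tryptophan breakdown away from NAD synthesis, was at 18.4, 15.5 and 35.9 CPM and then at 43.6, 42.5 and 28.3 CPM, which overlap.

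The genes nearest to a call were taken by a fixed rule: the 12 with the smallest p in each direction among those with an official symbol, a mean of at least 1 CPM and no overlap between the days. Among the 12 higher genes, which include Nnmt, the log2 fold changes ran from 0.69 to 4.49 and DESeq2 called all but Hoxb4. Among the 12 lower genes they ran from -2.29 to -0.64 and DESeq2 called 9, all but Trpm6, Akr1b7 and Tm4sf1. Apart from Nnmt none passed edgeR, with adjusted p from 0.180 to 0.632.

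Of the higher genes, Cml5, a camello-like gene of the N-acetyltransferase family, had 3.91, 3.94 and 4.44 CPM on day 2 and 18, 15.4 and 8.53 CPM on day 6 (log2 fold change 1.77 ± 0.30 SE). Scara5, a scavenger receptor for ferritin, had 12, 1 and 5 reads on day 2 and 204, 156 and 46 reads on day 6, so it was close to its detection limit on day 2. Untreated 1-month livers held 0.422 and 3.74 CPM of Scara5, and 6-month livers 10.5 to 26.7 CPM. Srd5a1, a steroid 5-alpha-reductase that makes dihydrotestosterone, had 79.4, 58.4 and 77.1 CPM on day 2 and 130.0, 110.0 and 107 CPM on day 6 (0.69 ± 0.16). In 6-month livers Cml5 was at 9.26 to 19.4 CPM and Srd5a1 at 97.2 to 126 CPM, ranges that the day 6 values overlapped, whereas the day 6 values of Scara5 lay below its 6-month range.

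In a second group of the higher genes the untreated 1-month libraries lay near the day 6 values, so that day 2 was the low point. Ablim3, an actin-binding LIM protein, had 28.3 and 44.7 CPM untreated, 16.3, 13.5 and 17.6 CPM on day 2 and 45.2, 42.0 and 27.9 CPM on day 6. Il1r1, the signalling receptor for interleukin-1, had 68.8 and 87.5 CPM untreated, 36.0, 23.5 and 43.7 CPM on day 2 and 102, 82.6 and 44.4 CPM on day 6. Day 6 replicate 3 of Il1r1 lay just above the highest day 2 library. The histone demethylase gene Phf8 showed the same order, with 31.1 and 31.6 CPM untreated, 15.2, 12.1 and 15.2 CPM on day 2 and 36.7, 28.2 and 16.8 CPM on day 6. Hoxb4, a homeobox gene, had 0.365 to 0.644 CPM on day 2 and 1.20 to 1.34 CPM on day 6, and the snoRNA host gene Snhg17 had 6.64 to 9.61 and 12 to 20 CPM.

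The mirror of that group was Sgk1, the serum- and glucocorticoid-regulated kinase, which headed the lower genes. It had 24.6 and 33.8 CPM in untreated 1-month livers, 58.6, 60.9 and 52.2 CPM on day 2 and 28.8, 26.3 and 34.3 CPM on day 6 (log2 fold change -0.94 ± 0.18 SE, adjusted p = 0.241 from edgeR and 0.0016 from DESeq2). Day 2 therefore stood alone among the 1-month groups, and 6-month livers held 21.3 to 32.3 CPM throughout. Arrdc4, an arrestin-domain gene that answers to glucose, followed the same order at 9.86 and 14.4 CPM untreated, 19.2 to 25.4 CPM on day 2 and 9.96 to 16.1 CPM on day 6. Of the remaining lower genes, the liprin gene Ppfibp1 had 38.5 to 50.5 CPM on day 2 and 22.4 to 29.0 CPM on day 6. The membrane protein genes Itm2a and Tm4sf1 had 2.39 to 4.18 and 9.57 to 14.4 CPM on day 2, and 1.24 to 1.39 and 7.22 to 8.81 CPM on day 6. Trpm6, a magnesium channel gene, and Akr1b7, an aldo-keto reductase gene, had 0.598 to 1.74 and 1.06 to 3.25 CPM on day 2, and 0.144 to 0.472 and 0.480 to 0.786 CPM on day 6.

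Male-biased liver genes lay higher on day 6 than on day 2 as a group. All 30 on the list were tested, 28 had a fold change above 0, the median log2 fold change was 0.79, and 14 were higher without overlap and 0 lower. No member passed edgeR, and DESeq2 called 5 of them higher (Cyp4a12a, Mup21, C6, Cyp7b1 and Cyp4a12b). The median was 0.82 without the low-score libraries and 0.77 between the low-score libraries, and leaving out 1 library at a time gave 0.61 to 1.04. Against untreated 1-month livers (2 libraries) the median log2 fold change of the list was -0.40 on day 2 and 0.36 on day 6. The step between the days thus began below the untreated level and ended above it. The Mup genes are close copies that share reads, and 6 of the 9 on the list are at 0 in 1 untreated 6-month library, so the list was also read without them. The 21 other genes had a median of 0.37, with 7 higher and 0 lower without overlap.

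The promoters of the male-biased Mup21 and C6 and of the female-biased Cyp2a22 are shown because these genes are among the leading ones of their lists and have a start site in the RefSeq promoter table (GRCm38.p6). Capitals mark ATTGAT or its reverse complement, the core bound by HNF6 and CUX2, which are factors of sex-biased liver expression, and TATAAA, the TATA box, each searched on both strands. The growth hormone-responsive STAT5 element TTCNNNGAA was searched as well and these letters are not in the 3 windows. The stretches end where the gene of the deposited annotation begins and are read 5′ to 3′ along the gene, Mup21 at chr4:62150864-62151091 (minus strand), C6 at chr15:4726960-4727174 (plus strand) and Cyp2a22 at chr7:26939387-26939636 (minus strand).
Mup21: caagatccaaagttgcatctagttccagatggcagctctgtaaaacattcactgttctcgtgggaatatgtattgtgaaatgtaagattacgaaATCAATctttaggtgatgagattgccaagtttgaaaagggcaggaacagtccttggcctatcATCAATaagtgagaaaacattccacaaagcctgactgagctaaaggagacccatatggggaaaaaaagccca
C6: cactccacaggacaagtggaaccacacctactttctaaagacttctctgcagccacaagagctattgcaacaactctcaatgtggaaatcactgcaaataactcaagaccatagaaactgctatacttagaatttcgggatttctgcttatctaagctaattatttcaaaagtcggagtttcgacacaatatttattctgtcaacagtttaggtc
Cyp2a22: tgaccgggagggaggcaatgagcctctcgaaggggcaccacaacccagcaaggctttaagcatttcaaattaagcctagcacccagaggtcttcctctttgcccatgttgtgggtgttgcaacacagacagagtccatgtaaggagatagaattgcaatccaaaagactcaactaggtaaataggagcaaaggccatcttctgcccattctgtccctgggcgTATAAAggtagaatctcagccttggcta
The HNF6 core of Mup21 began 156 and 94 bases before the RefSeq start, and the TATA box of Cyp2a22 began 28 bases before it. Over windows of 250 bases before the start, ATTGAT was held by 8 of 20 male-biased and 8 of 29 female-biased genes with an entry. It was held by 7.72% of all 27025 genes in the table and by 4.96% of the genes tested. The Mup genes among the male-biased ones are copies of each other. STAT5 letters were held by 2 of the male-biased and 3 of the female-biased genes, by 8.13% of all genes and by 7.56% of those tested. TATAAA was held by 4 of the male-biased and 9 of the female-biased genes, by 14.3% of all genes and by 8.51% of those tested.

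Cyp4a12a, an arachidonic acid hydroxylase of the male liver, had 104, 49.7 and 87.0 CPM on day 2 and 218, 203 and 173 CPM on day 6 (log2 fold change 1.30 ± 0.28 SE, adjusted p = 0.440 from edgeR and 0.00397 from DESeq2). Its close copy Cyp4a12b, named after its values were seen, had 4.12 to 17.2 and then 24.8 to 31.9 CPM, and reads of both may be exchanged. Mup21, whose promoter is printed above, had 42.0, 12.7 and 21 CPM on day 2 and 93.4, 57.4 and 67.3 CPM on day 6 (1.53 ± 0.33). C6, a component of the complement attack complex, had 97.3, 31.2 and 51.9 CPM on day 2 and 179, 194 and 119 CPM on day 6 (1.45 ± 0.33). For all 3 the lowest value was that of day 2 replicate 2, and the days did not overlap.

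Cyp7b1, the oxysterol 7-alpha-hydroxylase of the alternative bile acid pathway, had 28.6, 14.5 and 22.6 CPM on day 2 and 71.1, 54.6 and 41.4 CPM on day 6 (1.35 ± 0.32). Mup20 (darcin), a male pheromone, had 1052, 881 and 738 CPM on day 2 and 1952, 1071 and 1109 CPM on day 6, a narrow gap between the days, and 4115 CPM or more in every 6-month library. The epidermal growth factor receptor gene Egfr (709, 409 and 520.4 CPM, then 1087, 1079 and 690.4 CPM) overlapped by 1 library, while Selenbp2 (339, 146 and 298 CPM, then 736, 774 and 511 CPM) did not overlap. Both were named after their values were seen.

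Female-biased liver genes lay lower on day 6. Of 36 on the list 32 were tested, 4 had a fold change above 0, the median log2 fold change was -1.0, and 5 were lower without overlap and 0 higher. No member passed edgeR, and DESeq2 called 2 lower (Cyp2a22 and Slc22a27). The median was -1.04 without the low-score libraries and -0.74 between them, but -0.46 without day 2 replicate 2. The median deviation of the list from its mean over the 6 libraries was -0.13, 1.00 and 0.49 on day 2. On day 6 it was -0.42, -0.38 and -0.15, so day 2 replicate 1 lay barely above day 6 replicate 3. Sult2a1, a hydroxysteroid sulfotransferase, had 1, 167 and 32 reads on day 2 and 0, 1 and 2 on day 6, and Sult2a2, Sult2a5 and Cyp2b13 were as uneven, so the fitted fold changes of these 4 genes rest on few reads outside day 2 replicate 2 and are not read as values. Without them the median was -0.82.

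Cyp2a22, a P450 enzyme, had 43.1, 63.6 and 38.8 CPM on day 2 and 13.9, 11.3 and 23.4 CPM on day 6 (log2 fold change -1.58 ± 0.31 SE, adjusted p = 0.279 from edgeR and 0.0016 from DESeq2). Untreated 1-month livers held 39.7 and 46.7 CPM and untreated 6-month livers 1.31 and 1.37 CPM, so the day 6 values lay between the ages. Abcd2, a transporter of very long chain fatty acids into peroxisomes, had 85.5, 93.4 and 72.0 CPM and then 32.5, 46.3 and 36.6 CPM, and 12.3 to 29.7 CPM in 6-month livers. The organic anion transporter genes Slc22a27 (6.62, 37.3 and 14.9 CPM, then 3.21, 4.25 and 4.60 CPM) and Slc22a29 (2.07, 7.15 and 3.27 CPM, then 0.528, 1.35 and 1.06 CPM) both lie on chromosome 19 and were highest in day 2 replicate 2. Cyp2b9 (42.0, 96.3 and 61.4 CPM, then 23.6, 15 and 33.4 CPM) and the hydroxyacid oxidase gene Hao2 (7.77, 26.6 and 23.9 CPM, then 1.87, 11.2 and 3.66 CPM) were named after their values were seen. Cyp2b9 was at or under 1.00 CPM in every 6-month library.

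**Figure D2:**
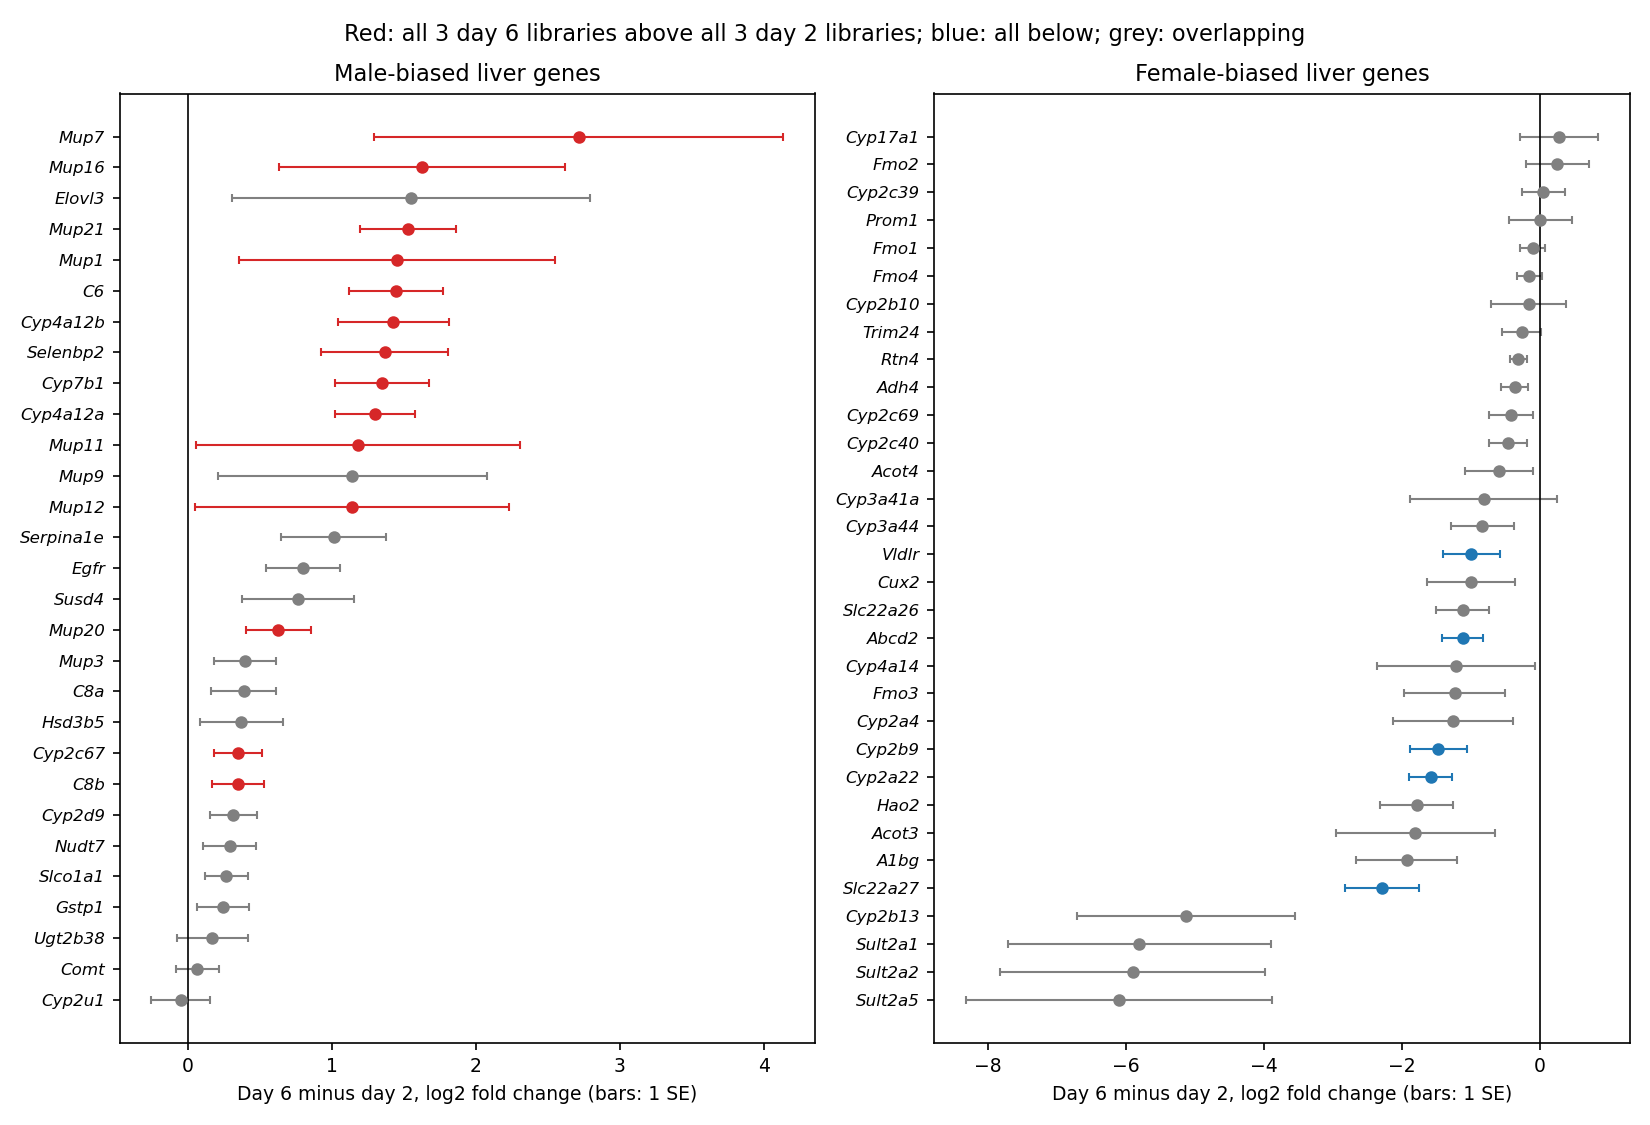
Log2 fold change of day 6 against day 2 in 1-month livers for each tested male-biased (left) and female-biased (right) gene, with bars of 1 standard error and red where all 3 day 6 libraries lay above the 3 day 2 libraries, blue where all lay below and grey where they overlapped. Of the male-biased genes 28 had a fold change above 0 and of the female-biased genes 4 (Moxd1, with 1 read in 2 of the 6 libraries, is not drawn).

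Growth hormone and IGF axis genes did not share a direction. Of 18 tested 11 were above 0, the median was 0.07, and 2 were higher and 2 lower without overlap. Jak2, the kinase at the growth hormone receptor, had 24, 22.3 and 24 CPM on day 2 and 17.3, 20.6 and 20.7 CPM on day 6, while Socs2, a feedback inhibitor that growth hormone induces, had 15.1, 22.6 and 5.62 CPM and then 19.1, 18.2 and 30.1 CPM.

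Fetal and juvenile liver genes had a median of -0.20 over 19 tested of 26, with 1 higher and 3 lower without overlap, and DESeq2 called 2 of them lower. Without day 2 replicate 3 the median was 0.08. Igf2bp3, a fetal RNA-binding protein that sustains Igf2, had 18.4, 13.6 and 18 CPM on day 2 and 8.11, 11.2 and 9.28 CPM on day 6 (log2 fold change -0.80 ± 0.19 SE, adjusted p = 0.564 from edgeR and 0.0234 from DESeq2). Untreated 1-month livers held 19.4 and 18.8 CPM and every 6-month library at most 0.656 CPM. Cdkn1c, the imprinted cell cycle inhibitor p57, had 2.07, 3.14 and 2.48 CPM and then 0.863, 0.902 and 1.30 CPM (-1.32 ± 0.28), next to 0.431 to 1.17 CPM at 6 months.

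Several leading genes lay nearer to their 6-month level on day 6, but not all did. Of the 12 higher genes of the fixed rule, 7 were higher and 5 lower in untreated 6-month than in untreated 1-month livers. Among the 12 lower genes, 2 were higher and 10 lower. Phf8, with a log2 fold change of 0.94 between the days, was called lower in untreated 6-month livers (-1.08). The step from day 2 to day 6 was therefore read in all genes that differ between untreated ages. They come from a contrast of control libraries only, although the estimate of the spread behind its calls is shared by all 16 libraries. Untreated 6-month livers had 252 genes higher (1.61%) and 166 lower (1.06%) than untreated 1-month livers, 2.67% of genes tested (edgeR, adjusted p under 0.1). Of the 252 genes higher at 6 months, 163 (64.7%) had a day 6 minus day 2 fold change above 0, against 49.2% of all genes, the median was 0.20, and 37 were higher and 13 lower without overlap. Of the 166 genes lower at 6 months, 55 (33.1%) were above 0, the median was -0.13, and 14 were higher and 34 lower without overlap. As shares these are 14.7% and 5.16% of the first set and 8.43% and 20.5% of the second, beside 3.56% and 3.28% of all genes. Both sets hold sex-biased genes, 9 male-biased among those higher and 16 female-biased among those lower at 6 months. In 6-month livers the same sets had medians of 0.07 and -0.03 between the days, and 64.3% and 45.8% of their genes were above 0, against 50.5% of all genes. The share of the genes higher at 6 months was thus nearly the same at both ages.

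With the same genes, the medians between the low-score libraries alone were 0.05 and -0.19, and without the low-score libraries 0.21 and -0.15. The median of the genes lower at 6 months was 0.01 without day 2 replicate 3, with the genes chosen anew. In that library the genes lower at 6 months lay 0.18 above their mean over the 6 libraries on the log2 scale, against 0.04 and -0.05 in the other day 2 libraries and -0.16, 0.07 and -0.11 on day 6. One of the 2 untreated 1-month libraries that chose the genes was of low clock score, and its part in the result was not tested.

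**Figure D3:**
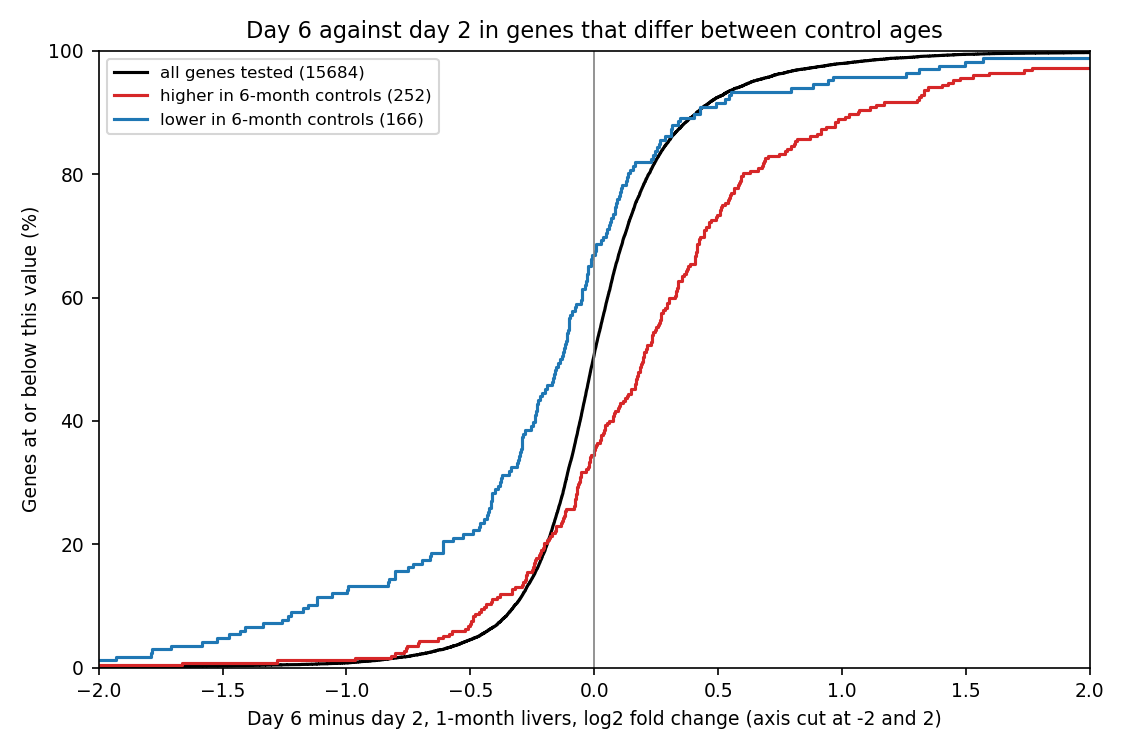
Cumulative share of genes (percent) by day 6 minus day 2 log2 fold change in 1-month livers, for all 15684 genes tested (black), the 252 genes higher (red) and the 166 genes lower (blue) in untreated 6-month than in untreated 1-month livers. The red line lies to the right of the black one and the blue line to the left over most of their course, with medians of 0.20, -0.00 and -0.13.

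p53 target genes lay slightly lower on day 6. Of 43 tested 14 were above 0, the median was -0.22, and 1 was higher and 1 lower without overlap. None was called by edgeR or DESeq2. Against untreated 1-month livers the median log2 fold change of the list was 0.65 on day 2 and 0.35 on day 6, above 0 on both days. Phlda3, an inhibitor of Akt that p53 induces (named after its values were seen), had 1.30 and 1.16 CPM in untreated livers, 14.5, 32.8 and 3.44 CPM on day 2 and 8.87, 2.59 and 10.9 CPM on day 6. Both days lay above the untreated livers and overlapped each other, with the lowest values in the 2 low-score libraries. Ccng1 (cyclin G1), another p53 target, had 125, 173 and 78.8 CPM on day 2 and 107, 55.2 and 88.8 CPM on day 6 (log2 fold change -0.59 ± 0.25 SE), against 46.8 and 43.5 CPM untreated. The extracellular sulfatase gene Sulf2 had 20.7, 26.3 and 17.4 CPM and then 15.4, 11.8 and 19.5 CPM, and the epoxide hydrolase gene Ephx1 had 701, 957 and 583 CPM and then 532, 553 and 661 CPM.

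The proapoptotic gene Bax had 25.4, 45.4 and 20 CPM on day 2 and 22.3, 18.5 and 24 CPM on day 6, and the cell cycle inhibitor gene Cdkn1a (p21) 47.6, 106 and 81.4 CPM and then 90.8, 87.5 and 62.2 CPM, both named after their values were seen. For Ccng1, Phlda3, Sulf2, Bax and Ephx1 the highest of the 6 libraries was day 2 replicate 2. Without day 2 replicate 2 the median of the list was -0.04, between the low-score libraries alone it was -0.01, and in 6-month livers it was -0.10.

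Genes of the apoptosis and repair machinery had medians near 0. They were -0.05 over 19 genes of intrinsic apoptosis, 0.05 over 30 genes of double-strand break repair and 0.00 over 35 genes of excision, mismatch and alkyl repair, with 0, 1 and 3 non-overlapping genes. The 3 included Xrcc1, a scaffold of base excision repair, at 9.02, 9.77 and 10.5 CPM and then 11.4, 11.7 and 12.2 CPM. The 1 was Nbn, of the MRN complex that senses broken ends, at 19.6, 21.7 and 19 CPM and then 16.5, 16.3 and 18.6 CPM. Rad52 (5.66, 4.30 and 5.10 CPM, then 5.61, 7.78 and 6.80 CPM) and the DNA polymerase gene Polb (14, 20.2 and 16.7 CPM, then 14.2, 11.5 and 14.7 CPM) overlapped.

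Cell division genes varied widely between pools. Of 40 tested 28 were above 0 with a median of 0.10 and 0 were non-overlapping, while the median deviation of the list from its mean over the 6 libraries was -0.61, 0.58 and -0.10 on day 2 and -0.28, 0.63 and -0.09 on day 6 (log2 scale). The median was -0.25 without the low-score libraries and 0.64 between them. Rrm2, the small subunit of ribonucleotide reductase, had 9.52, 19.1 and 10.4 CPM and then 20.2, 15.2 and 15.6 CPM. In 6-month livers the list had a median of 0.95 between the days, and the difference between the ages was not called for any member (4 of 40 at an unadjusted p under 0.05, against 2.05% of all genes).

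Genes of NRF2 and oxidant defence, which conjugate and reduce reactive compounds, lay lower on day 6. Of 32 tested 5 were above 0, the median was -0.32, and 0 were higher and 4 lower without overlap, with no call by either tool. Gstm1, a glutathione S-transferase with close copies, had 2153, 3039 and 2474 CPM on day 2 and 1328, 1942 and 1967 CPM on day 6, against 1695 and 1675 CPM untreated (log2 fold change -0.55 ± 0.18 SE). Gclm, the modifier subunit of the enzyme that starts glutathione synthesis, had 350.3, 353 and 286 CPM and then 262, 248 and 263 CPM (-0.36 ± 0.12). Srxn1 (sulfiredoxin) had 61.5, 94.7 and 58.6 CPM and then 47.7, 49.2 and 58.9 CPM, Nqo1 10.9, 22.4 and 10.4 CPM and then 9.69, 7.33 and 11.5 CPM, and Gsta1 4.00, 43.1 and 2.61 CPM and then 2.40, 7.97 and 4.44 CPM. All 3 overlapped and were highest in day 2 replicate 2, without which the median of the list was -0.10.

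**Figure D4:**
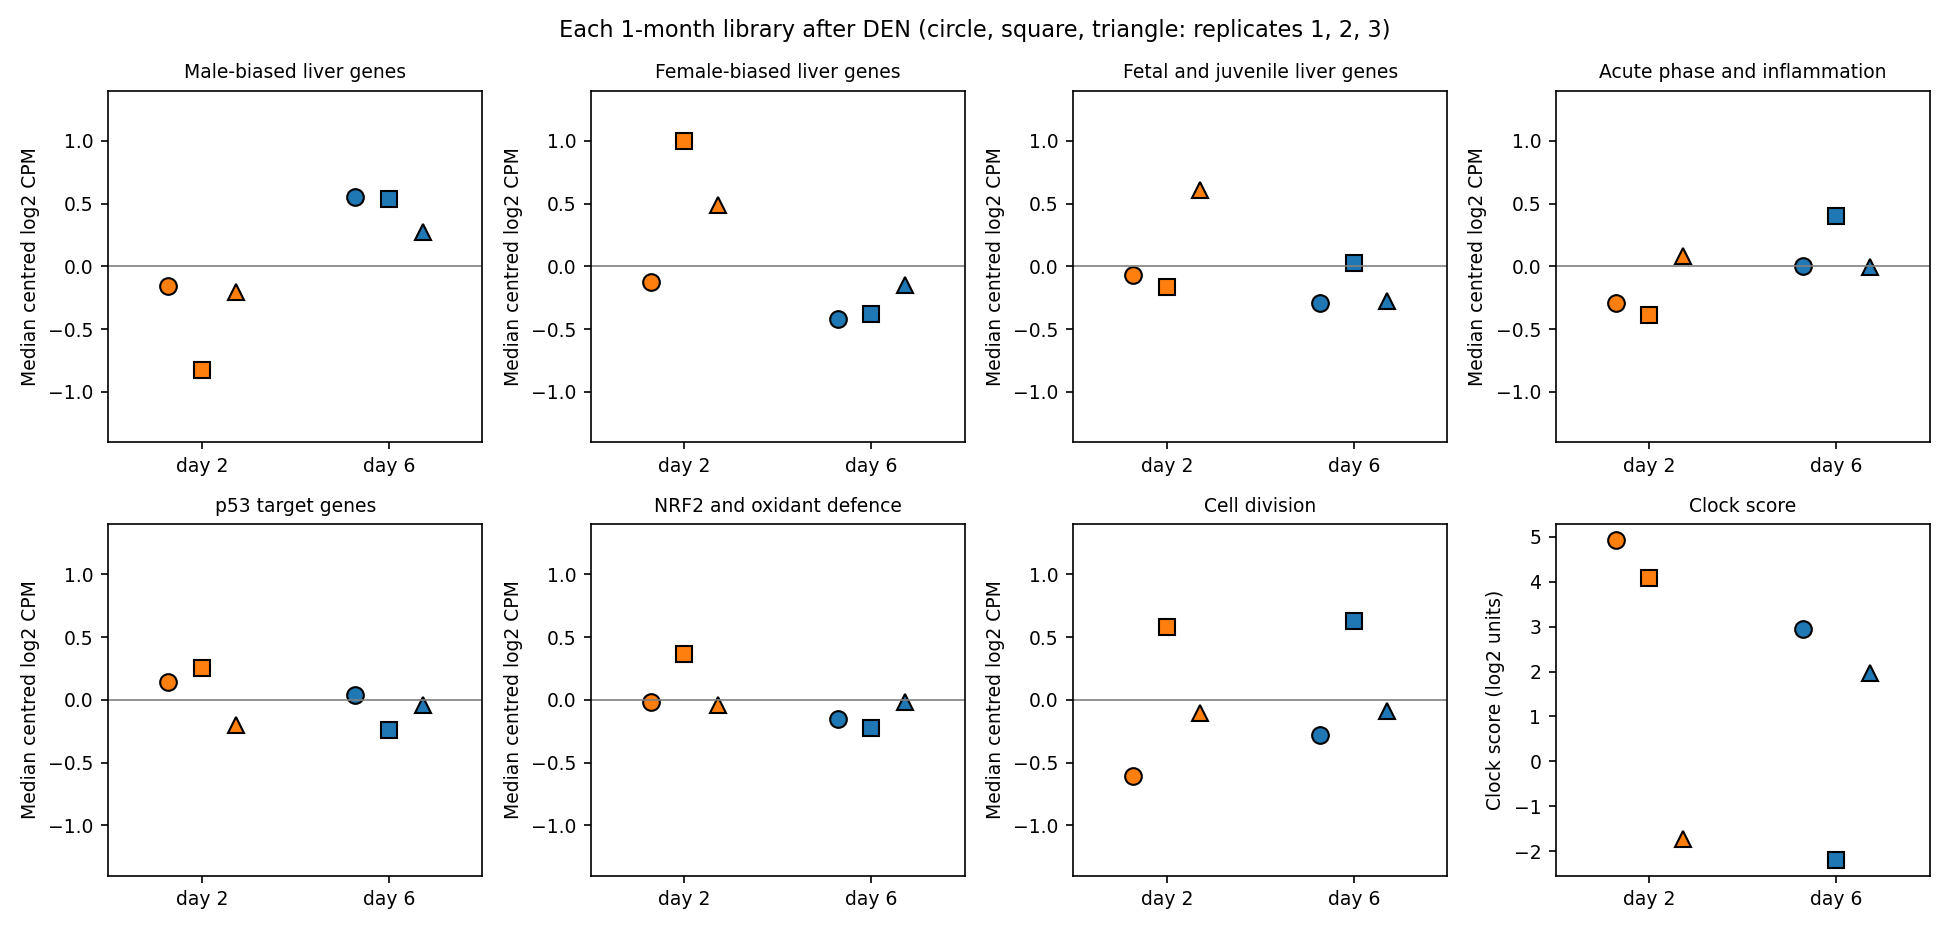
Median deviation of each list from its mean over the 6 libraries (log2 CPM) and, in the last panel, the clock score, for each 1-month library of day 2 (orange) and day 6 (blue), with circles, squares and triangles for replicates 1, 2 and 3. The male-biased medians lay at -0.16, -0.83 and -0.20 on day 2 and at 0.55, 0.54 and 0.27 on day 6 without overlap. The female-biased medians were separated only narrowly. All the other lists drawn, among them p53 targets, NRF2 and oxidant defence and acute phase and inflammation, and the clock score overlapped between the days.

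Genes of acute phase and inflammation lay mostly higher on day 6. The list holds acute phase proteins that the liver secretes, and also receptors, cytokines and regulators of inflammation. Day 6 replicate 2 was the highest library for 17 of the genes, and without it the median was 0.11. Of 35 tested 30 were above 0, the median was 0.32, and 7 were higher and 2 lower without overlap. The 2 lower genes were Nfkbia and Il1b (log2 fold changes -0.46 and -0.76), both named after their values were seen. DESeq2 called 2 genes of the list higher (Il1r1 and Saa4). Saa4, a constitutive serum amyloid A gene, had 278, 219 and 368 CPM on day 2 and 702, 473 and 398 CPM on day 6 (log2 fold change 0.86 ± 0.21 SE, adjusted p = 0.624 from edgeR and 0.0642 from DESeq2). Saa1, an inducible member, had 44.7 and 52.6 CPM untreated, 36.5, 25.6 and 73.0 CPM on day 2 and 111, 251 and 103 CPM on day 6 (1.78 ± 0.54, adjusted p = 0.890 from edgeR). The chemokine gene Cxcl1 had 5.47, 2.77 and 5.93 CPM and then 6.86, 24.8 and 6.17 CPM, so that 1 library made most of the difference.

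At 6 months 26 of the 35 genes of acute phase and inflammation had a fold change below 0 and 9 were above 0. Of them 7 were lower and 0 higher without overlap. Saa1 had 529.8, 712 and 139.9 CPM on day 2 and 90.3, 106 and 149 CPM on day 6 in 6-month livers, a log2 fold change of -2.0 against 1.78 at 1 month. For Lcn2 (lipocalin 2) and Orm2 (orosomucoid 2), both named after their values were seen, the fold changes were 1.16 and 0.58 at 1 month and -1.12 and -1.74 at 6 months. The difference between the ages was called for Orm2, Saa1, Nnmt and Lcn2 by DESeq2 (0.0142% of its genes, adjusted p = 0.0231, 0.0401, 0.0688 and 0.0932) and for 0 genes by edgeR, which gave 321 genes an unadjusted p under 0.05 (2.05% of those tested, 1.17% higher and 0.88% lower). Of the acute phase list 12 of 35 were among these 321. In 6-month livers the step from day 2 to day 6 itself gave 0 genes higher and 2 lower by edgeR (0.0128%), among them Apoa4, which had 156, 277 and 189 CPM on day 2 and 132, 227 and 119 CPM on day 6 at 1 month.

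Genes of fatty acid oxidation, ketogenesis and fasting had a median of -0.26 over 38 tested, with 6 above 0 and 0 higher and 5 lower without overlap. Day 2 replicate 2 was the highest library for 28 of the 38 (73.7%), and without it the median was -0.14. In 6-month livers the list had a median of -0.24 between the days, with 6 genes above and 32 below 0, so the step was similar at both ages. G6pc, the glucose-6-phosphatase that releases glucose, had 652, 801 and 736 CPM on day 2 and 431, 263 and 623 CPM on day 6 (log2 fold change -0.73 ± 0.29 SE, adjusted p = 0.951 from edgeR). Bdh1, of ketone body metabolism, had 407, 513 and 360.1 CPM and then 313, 292 and 362 CPM. Fgf21, a fasting hormone of the liver, had a fold change whose sign differed between subsets of the libraries. It had 5.20, 6.75 and 0.523 CPM and then 0.624, 2.59 and 0.747 CPM, so that its log2 fold change was -3.11 and called by edgeR without the low-score libraries but 2.16 between the low-score libraries.

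Fatty acid and triglyceride synthesis had a median of 0.16 over 24 tested, with 1 higher without overlap. This was Lpin1, a phosphatidate phosphatase, at 395, 218 and 398 CPM on day 2 and 1142, 404 and 430.4 CPM on day 6. Cholesterol synthesis and uptake had a median of -0.16 over 25 tested, and the 1 lower gene without overlap was Stard4, a cholesterol carrier, at 212, 173 and 185 CPM and then 143, 147 and 156 CPM. Bile acid synthesis and transport had a median of -0.05 over 26 tested, with 1 higher (Cyp7b1, above) and 2 lower without overlap, one of them Klb (beta-klotho, the co-receptor of FGF15 and FGF21) at 47.1, 39.1 and 40.8 CPM and then 28.7, 30.7 and 30.0 CPM. Cyp8b1, the sterol 12-alpha-hydroxylase that makes cholic acid, had 187, 104 and 259 CPM and then 282, 459.9 and 234 CPM.

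The zonal programs of the lobule had medians near 0, with 0.06 over 25 pericentral genes and 0.03 over 24 periportal genes and 1 higher and 1 lower without overlap in each. Nkd1, a Wnt target, had 3.91, 4.38 and 4.05 CPM and then 2.30, 2.03 and 3.54 CPM. Oat, the ornithine aminotransferase of pericentral cells, had 573 and 526 CPM untreated, 199.8, 151 and 331 CPM on day 2 and 279, 353 and 386 CPM on day 6. The periportal Sds (serine dehydratase) had 145, 111 and 130.3 CPM and then 242, 152 and 187 CPM, and Pigr, the immunoglobulin transporter, 774, 434 and 908 CPM and then 1170.3, 841 and 1072 CPM.

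Leaving out 1 library turned the sign of many medians. Among them were cholesterol synthesis (0.09 without day 2 replicate 3), immediate early genes (to 0.04) and the unfolded protein response (to -0.04). The clock genes of the Dbp and Arntl phases turned to 0.27 and -0.09. Cell division turned to -0.21, sinusoidal endothelium to 0.14 and cholangiocyte markers to 0.11. Double-strand break repair (to -0.05), periportal genes (to -0.04), the growth hormone axis (to -0.03) and other medians near 0 also turned. Of the lists not yet described, interferon response had a median of 0.16 over 34 tested and 0 non-overlapping genes, with Irf1 at 23.3, 21.7 and 28.0 CPM and then 24.4, 38.6 and 34.8 CPM, and Ifi27 at 89.2, 109 and 77.3 CPM and then 96.4, 138 and 143 CPM. Immediate early genes had a median of -0.13 over 24 tested, with 2 higher and 1 lower without overlap. Egr1, an early response factor, reached 124 CPM in day 6 replicate 2 alone, against 6.02 to 19 CPM in the other 5 libraries, and Klf2 had 8.10, 10.6 and 5.75 CPM and then 5.32, 4.32 and 6.49 CPM. Senescence and secretory genes had a median of -0.14 over 18 tested, with Igfbp3 at 38.5, 33.3 and 41.5 CPM and then 27.7, 32.0 and 26.0 CPM. Nuclear receptors of drug metabolism and their targets had a median of -0.07 over 28 tested, and the unfolded protein and heat shock response 0.13 over 32 tested. Extracellular matrix and fibrosis genes had a median of -0.26 over 31 tested, with 5 above 0 and 0 higher and 2 lower without overlap. Day 2 replicate 3 was the highest library for 27 of the 31, and the median was 0.12 without it and -0.00 without the low-score libraries. The 2 non-overlapping genes were Sparc (147, 143 and 169 CPM, then 111, 121 and 118 CPM), which 6-month livers held at 35.0 to 59.6 CPM, and Dcn (decorin; 131, 156 and 164 CPM, then 126, 116 and 112 CPM). The clock genes that peak with Dbp had a median of -0.41 over 9 tested and those that peak with Arntl 0.52 over 5, with 0 non-overlapping genes in both.

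**Figure D5:**
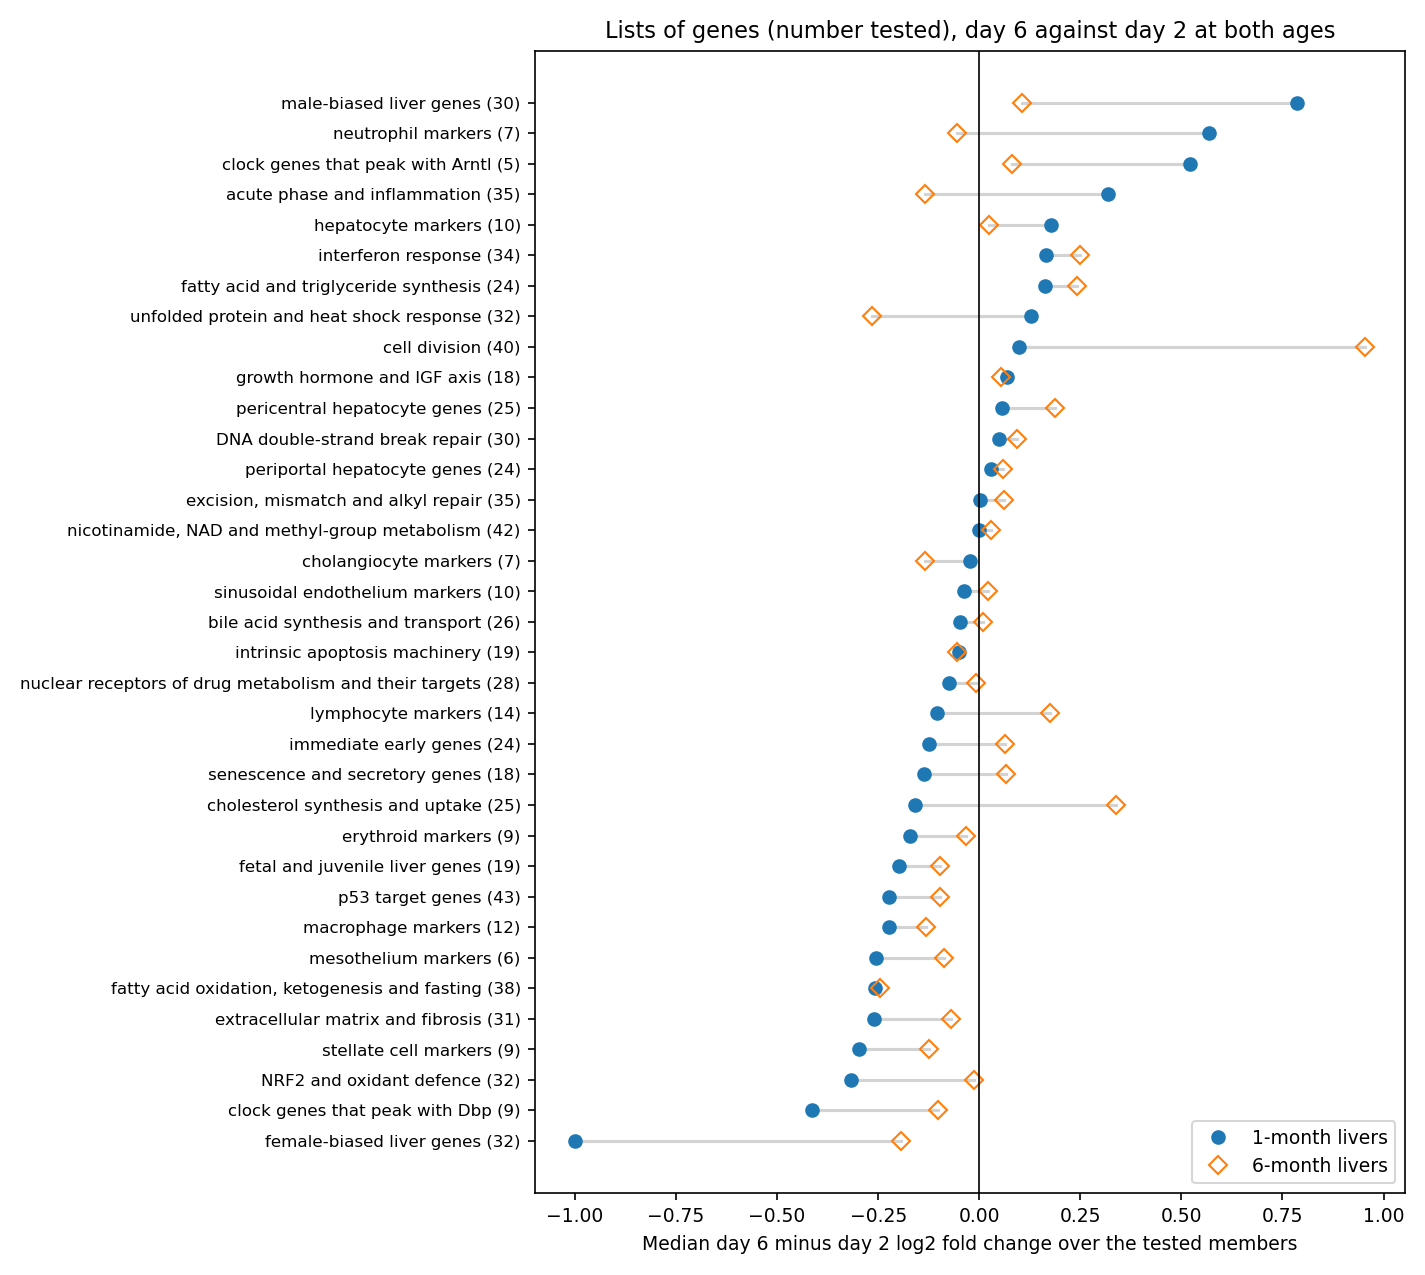
Median log2 fold change of day 6 against day 2 over the tested members of each list with at least 5 tested (number in brackets), for 1-month livers (filled circles) and 6-month livers (open diamonds). Male-biased and female-biased genes lay at the 2 ends in 1-month livers (0.79 and -1.0) and at 0.11 and -0.19 in 6-month livers.

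No marker of a cell type of the liver was called by either tool. Hepatocyte markers had a median of 0.18 over 10 tested (0.03 without day 2 replicate 2), Hnf4a being at 645, 532 and 636 CPM and then 865, 734 and 610.2 CPM. Alb, which defines hepatocytes, is listed at 0 in all 6 libraries and could not be used. The medians were -0.22 over 12 macrophage (-0.10 without day 2 replicate 2), -0.30 over 9 stellate cell, -0.04 over 10 sinusoidal endothelium and -0.02 over 7 cholangiocyte markers. All 9 stellate cell markers were below 0, and leaving out 1 library gave medians of -0.38 to -0.23. The median deviation of that list from its mean over the 6 libraries was 0.22, 0.16 and 0.09 on day 2. On day 6 it was -0.07, -0.33 and -0.16, without overlap. The non-overlapping genes were Colec11 of the stellate cell list (27.8 to 30.9 CPM, then 20.3 to 24.8 CPM), Epcam of the cholangiocyte list (1.00 to 1.52 CPM, then 0.714 to 0.944 CPM) and 1 endothelial gene, all lower. In whole liver, fewer cells of a type and less RNA per cell cannot be told apart.

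Lymphocyte markers had a median of -0.10 over 14 tested, with Cd4 at 1.75, 0.511 and 1.13 CPM and then 3.17, 2.44 and 1.38 CPM, and neutrophil markers 0.57 over 7 of 11. Day 6 replicate 2 was the highest library for 6 of the 7 neutrophil markers, and their median was -0.05 without it and -0.03 without the low-score libraries. Erythroid markers had a median of -0.17 over 9. With 1 library left out the lymphocyte median reached 0.15 and the erythroid median 0.09. Of tissues that could be carried over at dissection, exocrine pancreas had 2 of 15 markers tested (median -0.00), adipocytes 4 of 9 (0.30) and muscle and epidermis 2 of 12 (0.02). The 6 mesothelium markers had a median of -0.26 (0.45 without day 2 replicate 3), and their highest values were in low-score libraries. Msln (mesothelin), the marker of the liver's outer lining, was at 2.48, 4.96 and 15.1 CPM on day 2 and at 3.26, 11.7 and 4.95 CPM on day 6. Its part in other results was not tested.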

How the data were processed

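The 16 libraries of the series fall into 6 groups, and each holds whole liver RNA pooled from 3 mice. The authors trimmed the reads, mapped them with TopHat2 2.0.13 to GRCm38 (Ensembl release 84) and deposited raw counts per gene. What counted the reads, with or without strand, was not given in the sources used here. Therefore close copies and antisense partners may share reads. The authors' 16 columns of normalized counts and the columns of their own comparisons, which hold fold changes and p-values from DESeq2 1.10.1, were not used. Of 47729 genes 10 without counts were left out.

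Counts were filtered by filterByExpr, scaled by TMM and tested with edgeR's quasi-likelihood test (R 4.3.3 with edgeR 4.0.16; limma 3.58.1) under a single design for all 16 libraries in 6 groups, which share 1 estimate of the spread, with Benjamini-Hochberg adjustment and a threshold of 0.1. Fold changes have a prior count of 0.125, whereas 2 was added for log2 CPM. Total counts per library were 19.0 to 34.5 M (M, 1000000). The labels do not say how mice were assigned to pools, and p-values measure the spread between pools. DESeq2 1.42.0, limma-voom, other scalings, filters, subsets and covariates were run as alternatives, and the test was checked on simulated data. Lists were read by counts and medians, without a test. The members and lists were chosen with earlier results of these data known. Named genes are the called genes, the 12 of smallest p in each direction as the results state, up to 3 per list by smallest p, not all of which are printed, and the clock genes. Others are marked as named after their values were seen. Promoter sequences are from RefSeq. Figures were drawn with matplotlib 3.10.9. The result of 1 gene is not reported here.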

Additional observations from a re-analysis of the deposited data

How the results depend on the processing

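The log2 fold change of Nnmt stayed between 1.02 and 1.5 when 1 library was left out. It no longer passed with DESeq2 size factors in place of TMM (1.31, adjusted p = 0.102 from edgeR), in the fits of only the 6 libraries (1.33, adjusted p = 0.627) or the 8 libraries of 1-month livers (1.32, adjusted p = 0.929), and passed with limma-voom (adjusted p = 0.0968) and after a covariate for the clock score was added (adjusted p = 0.0115). The genes called higher numbered 21 with DESeq2, 57 with no filter on low counts, 2 without the low-score libraries and 0 with DESeq2 size factors and in the fits of 6 or 8 libraries, and those called lower 10, 29 and 1 in the first 3 of these. With 1 library left out they ranged from 0 to 9 higher and 0 to 1 lower, 9 higher coming without day 6 replicate 3 and 4 without day 2 replicate 1. The difference between the ages gave 4 genes higher with DESeq2, and 19 higher and 3 lower with no filter on low counts. The cause of these changes was not tested. The labels do not say whether the replicate numbers pair the samples. The deviations of same-numbered libraries correlated at 0.28, -0.30 and -0.09. The largest correlation was 0.50, between the low-score libraries day 2 replicate 3 and day 6 replicate 2. Because the clock phase differs between the libraries of a day, these values cannot show whether pools were paired. A replicate block gave 1 gene higher over 16 libraries (Gm38070, with Nnmt at 1.28 and adjusted p = 0.107 from edgeR) and 0 over 6 libraries (Nnmt 1.27, adjusted p = 0.962).

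The median of the genes higher in untreated 6-month livers, chosen anew under each setting, was 0.40 without the low-score libraries, 0.11 with DESeq2, 0.076 with a clock covariate, 0.27 with controls at an adjusted p under 0.05 and 0.27 without day 6 replicate 2 (0.13 to 0.27 with 1 library left out), and that of the genes lower was -0.21 to 0.011 with 1 library left out. The medians of NRF2 and female-biased genes ranged from -0.38 to -0.10 and from -1.27 to -0.46 with 1 library left out. Among the named genes, Cdkn1a changed sign without the low-score libraries (-0.0056), with a clock covariate (-0.18) and with 1 library left out (-0.23 to 0.31), Gsta1 without day 2 replicate 2 (0.59; -2.27 to 0.59 with 1 library left out), Egr1 without day 6 replicate 2 (-0.17; -0.17 to 2.29), Dbp with a clock covariate (0.81), Arntl with 1 library left out (-0.68 to 4.16), and Msln without the low-score libraries (0.14), with limma-voom (0.044), with the replicate block over 6 libraries (0.014) and with 1 library left out (-0.86 to 0.83).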
